A study of Mus musculus with 32 samples.

Results

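Cells of the tumor were set against cells of the tumor-draining lymph node on day 12, with 4 libraries on each side, 8 of the 32 libraries of the series, taken by their labels alone. Bulk RNA was sequenced from CD8+ Thy1.1+ cells of the Pmel line, whose transgenic receptor recognises a melanocyte antigen. The host animals were C57BL/6 mice with melanoma-associated vitiligo, with an age label of 16 weeks in every group, and every group of the series shares the transgenic receptor and the Thy1.1 label. The tumor group is labelled as tumor-infiltrating cells, and neither the time of its collection nor the way the tumors were dissociated is given in the sources used here. The lymph nodes were taken apart mechanically, and what day 12 is counted from is not stated. The remaining 6 groups, which enter the shared estimate of spread and the levels given last, are naive cells, spleen, lymph node memory cells, skin, lung and liver, and those other than naive cells and spleen date from 45 days after tumor surgery. Tissue, time and handling differ together between tumor and day 12 lymph node, and their shares in any difference cannot be told apart.

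A CD8+ T cell is first activated by antigen in the lymph node that drains a tumor, where it divides and takes up an effector program, and it reaches the tumor through the blood. Cells that keep the transcription factor TCF-1, encoded by Tcf7, renew themselves and can re-enter lymph nodes through the chemokine receptor CCR7. Cells that meet their antigen over a long time in a tumor gain inhibitory receptors such as PD-1, LAG-3 and TIM-3 together with the factor TOX, a state described as exhaustion, and can keep cytotoxic granules while doing so.

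The values are TPM, in which each transcript's reads are scaled by its length and every library sums to the same total, so the read depth behind them is unknown. A gene was called when the p-value of limma's moderated test, adjusted over all 19738 genes tested, was under 0.05, and every log2 change is tumor minus day 12 lymph node on the log2(TPM + 1) scale, which understates the change of genes with low values. Each log2 change is given with its standard error (SE) from that fit. The labels do not state that each library came from a separate animal, so these p-values measure only the spread between the libraries. In total 899 genes were higher in tumor (4.55% of those tested) and 477 were lower (2.42%), together 6.97%. The median log2 change of all genes was 0.03. The 2 groups did not overlap for 42.3% of genes, of which 3975 (20.1% of the genes tested) had all tumor libraries above and 4379 (22.2%) all tumor libraries below. The shared SE takes in the wider spread of other groups: the residual SD was 0.512 log2 units in tumor and 0.303 in the day 12 lymph node, against up to 1.33 elsewhere. With only the 2 groups in the fit, 41.4% of genes were called, 19.9% higher and 21.5% lower in tumor. Counts of calls in each gene list below are to be read beside these shares, and beside 4.55% and 2.42% in the shared fit. In the shared fit the split between higher and lower depended on scaling. It was 714 higher and 766 lower after quantile normalization, and 962 higher and 275 lower when TPM were rescaled without predicted, mitochondrial and marker genes. Leaving out 1 library other than tumor replicate 1 brought the number of called genes to between 774 and 868, and leaving out tumor replicate 1 brought it to 1623.

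**Figure D1:**
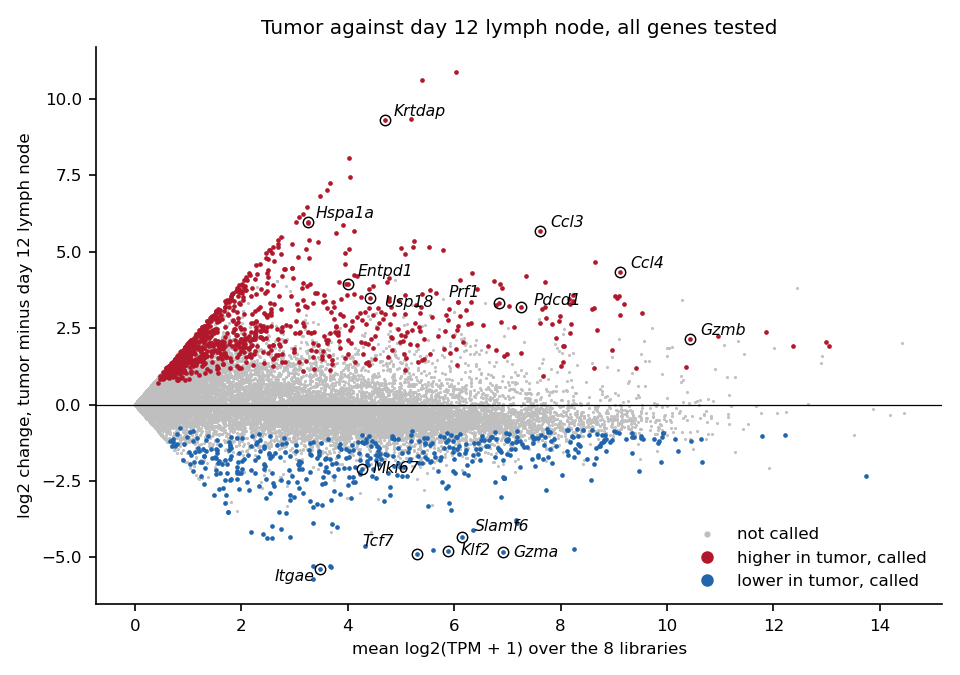
Each point is a gene, with the mean log2(TPM + 1) over the 8 libraries on the horizontal axis and the log2 change, tumor minus day 12 lymph node, on the vertical axis; red points were called higher in tumor, blue points lower, grey points were not called, and ringed points are named. Ccl3, Ccl4 and Gzmb combine a high level with a rise, while Tcf7, Klf2, Gzma and Itgae lie at the lower edge with log2 changes between -5.37 and -4.78.

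Markers of other cells differed between the groups in both directions, and the tumor libraries were less alike. T cell identity genes, such as the CD3 and CD8 chains, summed to 35331, 29628, 25876 and 14025 TPM in tumor replicates 1 to 4, against 28535 to 32881 TPM in the day 12 lymph node, and none of the 16 was called in either direction (none at an unadjusted p under 0.05, 2 higher and 2 lower with only the 2 groups). In tumor replicate 4, predicted genes, those with a Gm number for a name, counted here together with Tmf1 and Rorb, held 40.9% of TPM. That share was 10.8% to 24.8% in the other tumor libraries and 8.53% to 14.5% in the day 12 lymph node. Mitochondrial transcripts made up 5.43% to 14.8% of TPM in tumor and 2.28% to 3.04% in the day 12 lymph node, with the most in tumor replicate 2. Of the 9 melanocyte and melanoma genes, 8 were higher in tumor, and the list summed to 429 to 998.5 TPM there, against 7.2 to 10.4 TPM in the day 12 lymph node, where Mlana, Dct and Tyrp1 were at or near 0. Keratinocyte genes (4 of 10 higher) summed to 47 to 306 TPM in tumor and 14 to 15 TPM in the day 12 lymph node, with Krt5 and Lor at 0 there, and erythroid genes (5 of 6 higher) to 3609 to 12466 TPM in tumor and 0.7 to 2.4 TPM in the day 12 lymph node. Myeloid genes (3 of 14 higher) summed to 546 to 741 TPM in tumor and 187 to 225 TPM in the day 12 lymph node, and stromal genes (1 of 7 tested higher) to 17.2 to 43.9 TPM in tumor and 0.9 to 1.3 TPM in the day 12 lymph node. Dendritic cell genes summed to 12.1 to 21 TPM in tumor and 5 to 6.3 TPM in the day 12 lymph node, with none of the 6 tested called (1, Xcr1, was higher at an unadjusted p under 0.05). Endothelial genes (2 of 4 tested higher) summed to 94.7 to 479.6 TPM in tumor and 39.4 to 49.1 TPM in the day 12 lymph node, and without Pecam1, which T cells can also express, the sums overlapped, at 7.1 to 13.8 TPM in tumor and 11.2 to 13.1 TPM in the day 12 lymph node. NK cell genes (1 of 6 lower, Eomes, which T cells also express) summed to 8.8 to 16.5 TPM in tumor and 29.5 to 32.8 TPM in the day 12 lymph node, but the other 5 summed to 6.5 to 11.6 TPM in tumor and 2.6 to 3.4 TPM in the day 12 lymph node. Gamma delta T cell genes (1 of 4 tested higher) summed to 57.6 to 130.4 TPM in tumor and 22.4 to 32.8 TPM in the day 12 lymph node. The gene that rose was Tcrg-C2 (51.6 to 125 TPM in tumor, against 2.38 to 4.26 TPM in the day 12 lymph node), which held most of the tumor sum. Trdc, of the delta chain, went the other way without a call (1.77 to 7.04 TPM in tumor, against 16.4 to 27.1 TPM in the day 12 lymph node). At an unadjusted p under 0.05, 1 member was higher and 1 lower. The CD4 and regulatory T cell list (1 of 4 higher, Ikzf4, and 1 lower, Cd40lg) summed to 5.4 to 7.6 TPM in tumor and 23.7 to 25.3 TPM in the day 12 lymph node. Cd40lg held most of the lymph node sum, with 0.57 to 4.32 TPM in tumor, against 22.3 to 23.9 TPM in the day 12 lymph node. Cd4 itself overlapped, with 0.6 to 2.27 TPM in tumor and 0.34 to 0.65 TPM in the day 12 lymph node. B cell genes had overlapping sums, 146.2 to 282.8 TPM in tumor and 201.1 to 269.8 TPM in the day 12 lymph node, but 2 of 9 fell, Cd79b (0.42 to 0.98 TPM in tumor, against 20.3 to 31.1 TPM in the day 12 lymph node) and Igkc (0.72 to 1.33 TPM in tumor, against 61.6 to 97.6 TPM in the day 12 lymph node). Hepatocyte genes stayed under 4 TPM in both groups. In bulk samples fewer cells of a type and less RNA per cell cannot be told apart.

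**Figure D2:**
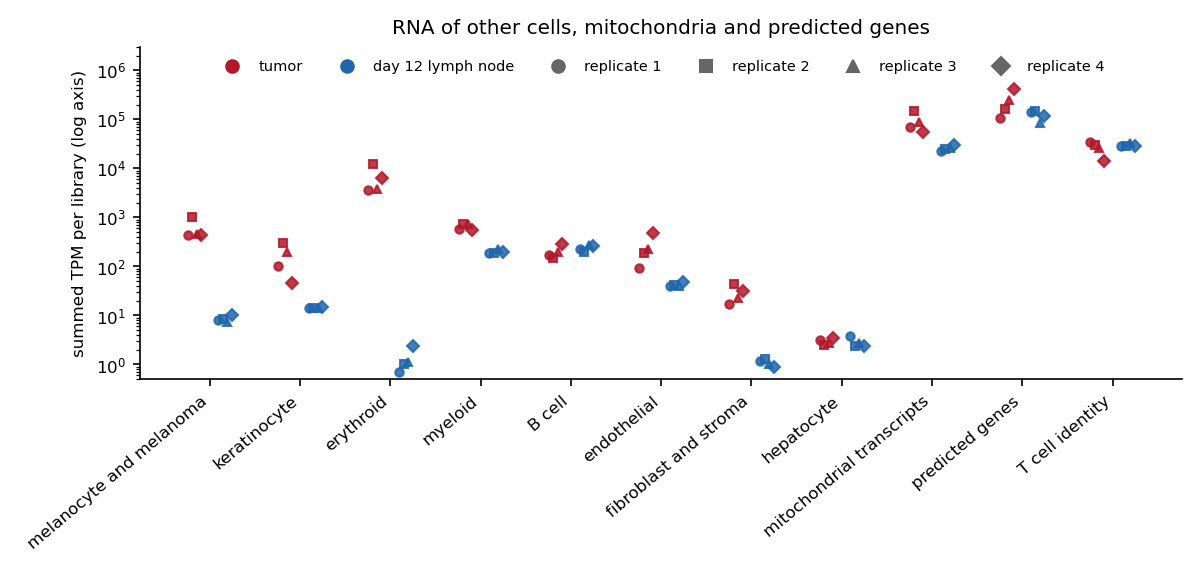
Summed TPM of marker lists of other cells, of mitochondrial transcripts, of predicted genes and of T cell identity genes in each library, on a log axis, with tumor in red left of the day 12 lymph node in blue and a symbol per replicate. Melanocyte, keratinocyte, erythroid, myeloid, stromal and mitochondrial RNA lie higher in all 4 tumor libraries, and tumor replicate 4 has the least T cell RNA, 14025 TPM, and the most predicted-gene RNA.

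The calls among genes of the naive, stem-like and circulating states were all decreases in tumor. Of 22 naive and stem-like genes 9 fell and none rose, with a median log2 change of -1.66, and of 21 circulation and egress genes 11 fell and none rose, with a median of -1.93, beside 2.42% of all genes called lower and a median of 0.03 over all genes. Tcf7 counts in both lists. With only the 2 groups in the fit, 15 naive and stem-like genes were lower and 2 higher, and 14 circulation genes were lower and 2 higher. Summed over the naive and stem-like list, the level was 210 to 396 TPM in tumor and 996 to 1241 TPM in the day 12 lymph node. The circulation sums overlapped, at 1227 to 2441 TPM in tumor and 1707 to 1898 TPM in the day 12 lymph node. The decreases numbered 5 in the naive and stem-like list without tumor replicate 4, and 7 in the circulation list with a pseudocount of 0.1 TPM. Tcf7, which encodes TCF-1, lies on chromosome 11 (chr11:52252371-52283014, mm10, minus strand). It measured 3.84, 9.59, 11.1 and 3.28 TPM in tumor, against 241, 206, 241 and 173 TPM in the day 12 lymph node. The lowest lymph node library was 15.7-fold above the highest tumor library, and the log2 change was -4.90 ± 0.61, adjusted p = 2.57e-06. Slamf6, a surface receptor used to mark stem-like cells, measured 15.6, 17.4, 23.4 and 7.43 TPM in tumor, against 337, 319, 356 and 272 TPM in the day 12 lymph node. Its groups lay far apart as well, with a change of -4.34 ± 0.92, adjusted p = 0.00329. Nsg2 fell by a similar size (-4.34 ± 0.76, adjusted p = 0.000375), to 0.37 to 1.36 TPM in tumor, against 29.5 to 37.5 TPM in the day 12 lymph node.

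The genes Klf2 and S1pr1, which serve movement between blood, lymph and tissue, fell in tumor, and Ccr7 did not pass the test. Klf2, the transcription factor that drives S1pr1, measured 10.2, 8.65, 23.8 and 4.94 TPM in tumor, against 326, 286, 315 and 307 TPM in the day 12 lymph node. Tumor replicate 3 was the highest of its group and still far under every lymph node library, and the change was -4.78 ± 0.46, adjusted p = 2.41e-08. S1pr1, the receptor that guides T cells out of tissue toward blood and lymph, measured 3.33, 3.73, 5.64 and 0.98 TPM in tumor, against 108, 99.1, 97.6 and 90.03 TPM in the day 12 lymph node, a change of -4.62 ± 0.88, adjusted p = 0.00105. Ccr7, the chemokine receptor for entry into lymph nodes, measured 13.2, 1.94, 7.59 and 5.24 TPM in tumor, against 52.5, 49.5, 60.1 and 41.8 TPM in the day 12 lymph node. The tumor libraries lay below all lymph node libraries but differed 6.8-fold among themselves, and the change of -2.91 ± 1.24 did not pass the test (adjusted p = 0.161; 0.00121 with only the 2 groups). Rasgrp2, an exchange factor for the GTPase Rap1, fell by 4.09 ± 0.36 log2 units (adjusted p = 5.26e-09), with 15.8 to 25.8 TPM in tumor, against 331 to 356 TPM in the day 12 lymph node.

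**Figure D3:**
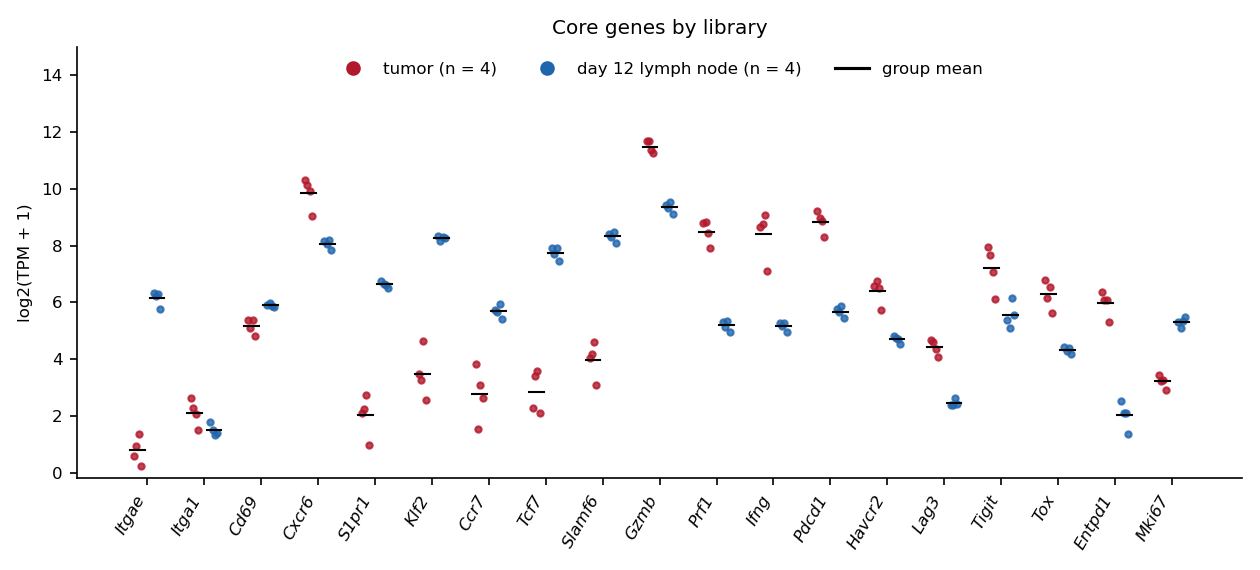
Each dot is the log2(TPM + 1) of a gene in 1 library, with tumor in red left of the day 12 lymph node in blue and a black line for the mean of each group of 4. Of these 19 genes 8 were called higher and 6 lower in tumor, and the groups overlap for Itga1 and Tigit only.

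Cytotoxic genes split, with the granzyme B and perforin genes higher and the granzyme A and M genes lower. Of 20 cytotoxic genes 5 rose and 2 fell, with a median log2 change of 0.42, and with a pseudocount of 0.1 TPM 3 rose and 1 fell. Gzmb, the main granule protease of cytotoxic T cells (chr14:56258838-56262260, minus strand), measured 3278, 3276, 2626 and 2441 TPM in tumor, against 691, 640.1, 751 and 552 TPM in the day 12 lymph node. It was already abundant in the lymph node, and the lowest tumor library was 3.25-fold the highest lymph node library, with a change of 2.14 ± 0.55, adjusted p = 0.0152. Prf1, the pore-forming perforin, measured 447, 450.03, 347 and 239 TPM in tumor, against 39.02, 34.2, 39.6 and 29.9 TPM in the day 12 lymph node. Its change was 3.31 ± 0.81, adjusted p = 0.0104, and tumor replicate 4 had the least of the 4 for both genes. Gzma, a granule protease of another cleavage specificity, measured 50.3, 4.53, 55.6 and 15.01 TPM in tumor, against 562, 551, 746 and 729.98 TPM in the day 12 lymph node. It was low in all tumor libraries and spread 12.3-fold among them, with a change of -4.83 ± 0.90, adjusted p = 0.000848. Gzmm fell by 2.43 ± 0.57 (adjusted p = 0.00795), with 0.71 to 2.57 TPM in tumor, against 11.1 to 12.5 TPM in the day 12 lymph node. That call was lost with a pseudocount of 0.1 TPM (adjusted p = 0.0542). Gzmc rose by 2.75 ± 0.72 (adjusted p = 0.0167), a call that was lost without tumor replicate 4 (adjusted p = 0.0789), which held 90.5 TPM against 27.8 to 55.5 TPM in the other 3 tumor libraries, and with a pseudocount of 0.1 TPM (adjusted p = 0.17). Gzmc has close copies in its gene cluster, whose reads the counting could have split.

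Among inhibitory receptors and genes of exhaustion, rises in tumor outnumbered decreases. Of 22 such genes 8 rose and 2 fell, with a median log2 change of 1.14. With only the 2 groups 13 were higher and 4 lower, beside 19.9% and 21.5% of all genes. Pdcd1, which encodes the inhibitory receptor PD-1 (chr1:94038305-94052553, minus strand), measured 601, 499.9, 472 and 315 TPM in tumor, against 52.9, 49.2, 57.3 and 42.4 TPM in the day 12 lymph node. The lowest tumor library was 5.5-fold the highest lymph node library, and the change was 3.17 ± 0.76, adjusted p = 0.00853. Entpd1, which encodes the ectonucleotidase CD39 (chr19:40612366-40741602, plus strand), measured 81.9, 66.6, 66.6 and 39.2 TPM in tumor, against 4.8, 3.35, 3.32 and 1.55 TPM in the day 12 lymph node. It was low in all lymph node libraries and present at a higher level in all tumor libraries, with a change of 3.93 ± 0.64, adjusted p = 0.000168. Lag3, an inhibitory receptor for MHC class II, measured 24.5, 23.4, 19.4 and 15.8 TPM in tumor, against 4.26, 4.29, 5.19 and 4.42 TPM in the day 12 lymph node, with a change of 1.96 ± 0.33, adjusted p = 0.000275.

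Other members of that group differed less firmly. Havcr2, which encodes TIM-3, measured 94.4, 106, 89.9 and 51.95 TPM in tumor, against 27.5, 26.2, 25.3 and 22.3 TPM in the day 12 lymph node. The groups did not overlap, but the change of 1.67 ± 0.74 did not pass the shared fit (adjusted p = 0.182) and passed with only the 2 groups (adjusted p = 0.000641). Tigit, another inhibitory receptor gene, measured 249, 201, 133 and 67.9 TPM in tumor, against 40.7, 33.3, 70.1 and 46.1 TPM in the day 12 lymph node. Tumor replicate 4 lay below day 12 replicate 3, so the groups overlapped, and the change of 1.65 ± 0.77 was not called (adjusted p = 0.207; 0.0121 with only the 2 groups). Tox, the exhaustion factor, measured 109, 70.9, 93.03 and 48.6 TPM in tumor, against 20.7, 18.8, 20.2 and 17.1 TPM in the day 12 lymph node. All tumor libraries were above all lymph node libraries, and the change was 1.95 ± 0.61, adjusted p = 0.0467, a call that was lost on leaving out any 1 of the 8 libraries (adjusted p between 0.0626 and 0.121), with no filter (0.082) or with a pseudocount of 0.1 TPM (0.205). With only the 2 groups the adjusted p of Tox was 0.000446. The largest rise called in the group was that of Lilrb4a, an inhibitory immunoglobulin-like receptor, with 39.1 to 86.2 TPM in tumor, against 0.34 to 0.68 TPM in the day 12 lymph node (5.38 ± 0.78, adjusted p = 3.14e-05), although it shares most of its sequence with a neighbouring gene and its reads may be split between them. Nr4a2, a nuclear receptor induced by T cell receptor signals, rose by 2.98 ± 0.69 (adjusted p = 0.00703). Myeloid genes summed to 546 to 741 TPM in tumor, against 187 to 225 TPM in the day 12 lymph node. The part of myeloid RNA in the rises of this list was not tested. The 2 members that fell were the transcription factor genes Eomes (-2.57 ± 0.58, adjusted p = 0.00553) and Tox2 (-2.52 ± 0.38, adjusted p = 5.63e-05), and the call of Eomes was lost with a pseudocount of 0.1 TPM (adjusted p = 0.0612).

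Genes of secreted mediators were mostly higher in tumor where they were called. Of 16 cytokine and chemokine genes 6 rose and 1 fell, with a median log2 change of 1.91. Ccl3, a chemokine that attracts myeloid and T cells through its receptors, measured 1758, 2046, 1547 and 692 TPM in tumor, against 26.8, 23.2, 30.1 and 25.8 TPM in the day 12 lymph node. The lowest tumor library was 23-fold the highest lymph node library, with a change of 5.68 ± 0.82, adjusted p = 2.87e-05. Ccl4, its close relative in sequence and receptor use, measured 3146, 3589, 2901 and 1189 TPM in tumor, against 114, 98.3, 139.6 and 146 TPM in the day 12 lymph node, with a change of 4.33 ± 0.53, adjusted p = 1.78e-06. Both were lowest in tumor replicate 4, the library with the least T cell RNA. Ifng, the interferon gamma gene, measured 404, 438, 540.3 and 137 TPM in tumor, against 37.8, 34.8, 37.6 and 30.4 TPM in the day 12 lymph node. The same library was again lowest within the tumor group, and the change was 3.24 ± 0.59, adjusted p = 0.00059. Spp1, which encodes the secreted phosphoprotein osteopontin and is abundant in macrophages too, rose by 4.60 ± 1.0 (adjusted p = 0.00402), with 49.4 to 156 TPM in tumor, against 1.56 to 3.2 TPM in the day 12 lymph node. Ccl9, a chemokine gene that is also expressed by myeloid cells, rose by 3.76 ± 1.10 (adjusted p = 0.033), a call that was lost on leaving out any 1 library but tumor replicate 4 (adjusted p up to 0.0879) and with no filter (0.0645). The part of the higher myeloid RNA in these rises was not tested. The member that fell was the cytokine gene Il21, whose groups overlapped, with 0.84 to 6.95 TPM in tumor, against 6.15 to 7.37 TPM in the day 12 lymph node (-1.23 ± 0.31, adjusted p = 0.0133). That call was lost without tumor replicate 4 (adjusted p = 0.0924), with a pseudocount of 0.1 TPM (0.186) and when TPM were rescaled without predicted, mitochondrial and marker genes (0.0757).

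Residency genes moved in both directions, and the integrin gene most often used to mark resident cells was lower in tumor. Of 23 residency genes 6 rose and 2 fell, with a median log2 change of 0.83. With only the 2 groups 11 were higher and 3 lower, beside 19.9% and 21.5% of all genes. In the shared fit the rises became fewer whichever library was left out. They numbered 0 without tumor replicate 3, 1 without tumor replicate 2 or day 12 replicate 2 or 4, and 2 without day 12 replicate 1 or 3. There were 3 without tumor replicate 1 or 4 or with no filter. The decreases numbered 1 without tumor replicate 4 or day 12 replicate 1, 2 or 3 and with a pseudocount of 0.1 TPM. Itgae, the CD103 integrin chain that binds E-cadherin on epithelium, measured 0.52, 0.94, 1.6 and 0.18 TPM in tumor, against 80.5, 73.9, 78.03 and 53.7 TPM in the day 12 lymph node. It was nearly absent from the tumor libraries, and the change was -5.37 ± 0.61, adjusted p = 5.0e-07. Itgb7, the chain that pairs with CD103, measured 33.1, 58.8, 36.6 and 28.2 TPM in tumor, against 565, 536, 557 and 449.9 TPM in the day 12 lymph node. It kept a low but clear level in tumor, with a change of -3.77 ± 0.52, adjusted p = 1.45e-05. Cxcr6, a chemokine receptor of tissue T cells, measured 1271, 1131, 961 and 531 TPM in tumor, against 286, 268, 292 and 231 TPM in the day 12 lymph node. The change was 1.78 ± 0.48, adjusted p = 0.0215, and it was no longer called without tumor replicate 1, 2 or 3 or without day 12 replicate 2 or 4 (adjusted p up to 0.0678). Cd69, which holds cells in tissue by opposing S1pr1, measured 40.6, 33.7, 41.1 and 26.9 TPM in tumor, against 58.9, 62.7, 58.2 and 55.8 TPM in the day 12 lymph node. The tumor libraries were all below the lymph node libraries by a small margin (-0.73 ± 0.46, adjusted p = 0.376; 0.0054 with only the 2 groups). Itga1, the CD49a chain, measured 5.17, 3.83, 3.18 and 1.87 TPM in tumor, against 2.44, 1.81, 1.49 and 1.64 TPM in the day 12 lymph node, with overlapping groups and no call (0.62 ± 0.66, adjusted p = 0.634).

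Among the other residency genes, Cd244a, which encodes the receptor 2B4, measured 60.7, 32.2, 46.2 and 28.2 TPM in tumor, against 4.43, 4.54, 4.72 and 4.63 TPM in the day 12 lymph node (2.88 ± 0.77, adjusted p = 0.0194). That call was lost without tumor replicate 3 (adjusted p = 0.0554) and with a pseudocount of 0.1 TPM (0.0833). Bhlhe40, a transcription factor gene of resident cells, rose by 2.57 ± 0.72 (adjusted p = 0.025), and its adjusted p was between 0.0512 and 0.0641 on leaving out any 1 library. Of 18 genes that respond to TGF-beta, which induces Itgae, 2 rose and 3 fell, with a median log2 change of -0.17 that turned to 0.15 when TPM were rescaled without predicted, mitochondrial and marker genes. Only 1 rose on leaving out any 1 library but tumor replicate 1 or 4, and 6 fell with quantile normalization. Itgae itself was 1 of the 3 that fell, and Cdh1 was 1 of the 2 that rose. Cdh1 changed by 1.82 ± 0.55 (adjusted p = 0.0397). It measured 1.12 to 5.48 TPM in tumor, against 0.08 to 0.18 TPM in the day 12 lymph node. Its call was lost on leaving out any 1 library but tumor replicate 1 or 4 (adjusted p up to 0.129) and with no filter (0.0664). Smad3, a transducer of TGF-beta signals, measured 0.25, 0.28, 1.27 and 0.68 TPM in tumor, against 5.75, 5.04, 4.28 and 5.37 TPM in the day 12 lymph node (-1.95 ± 0.50, adjusted p = 0.0149); its call was lost without tumor replicate 2 (adjusted p = 0.052). Rgs16, a regulator of G protein signalling, rose by 4.13 ± 0.74 (adjusted p = 0.000493), with 66.5 to 148 TPM in tumor, against 3.65 to 6.96 TPM in the day 12 lymph node. The list of chemokine receptors and integrins, 19 genes, had 2 that rose and 6 that fell (median -0.45), with 1 that rose on leaving out any 1 library but tumor replicate 4. Ccr10, the receptor for a chemokine made by keratinocytes, measured 0.17, 1.54, 1.09 and 0.16 TPM in tumor, against 71.7, 66.3, 49.2 and 64.9 TPM in the day 12 lymph node. The gene was near 0 in tumor, and the change was -5.27 ± 0.80, adjusted p = 5.38e-05. Ccr4 (-2.56 ± 0.56, adjusted p = 0.00438) and Cxcr4 (-2.10 ± 0.50, adjusted p = 0.0087) were lower as well.

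**Figure D4:**
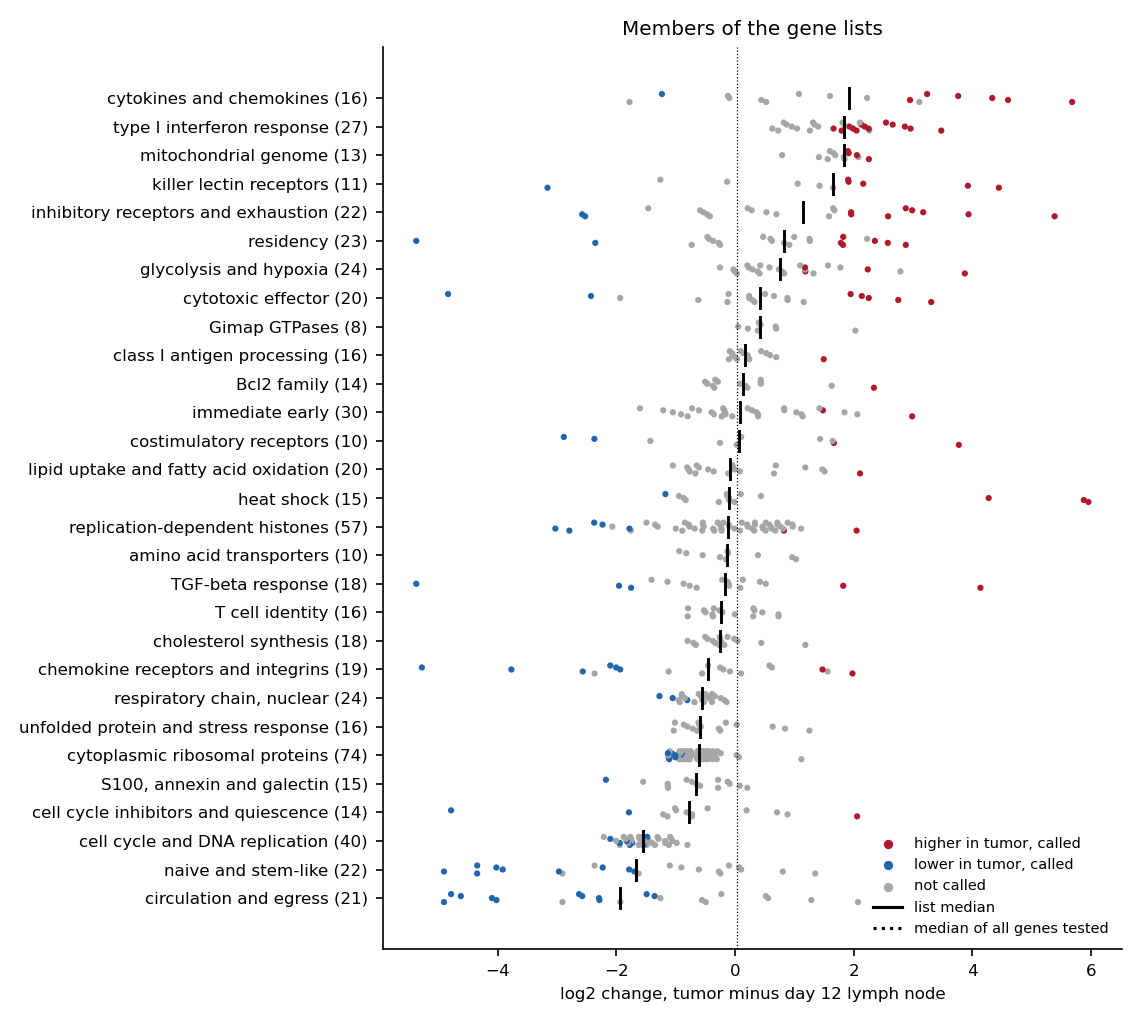
Each point is the log2 change, tumor minus day 12 lymph node, of a member of a gene list, coloured red where called higher, blue where called lower and grey where not called, with the list median as a black line, the median of all genes tested as a dotted line and the number of members tested in parentheses. Circulation, naive and stem-like and cell cycle lists sit lowest, with medians of -1.93, -1.66 and -1.54, and cytokine and interferon lists highest, with medians of 1.91 and 1.84.

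Killer lectin receptors, which T cells share with NK cells, had more rises than decreases in tumor, and the calls among costimulatory receptors split evenly. Of 11 killer lectin receptor genes 5 rose and 1 fell, with a median log2 change of 1.66, and 3 rose without tumor replicate 2 or 3 or day 12 replicate 2 or 4. NK cell markers other than Eomes were higher in sum in every tumor library, as given above. Most of that tumor sum was Klri2, itself a killer lectin receptor gene (3.41 to 10.9 TPM in tumor, against 0.66 to 1.27 TPM in the day 12 lymph node). The NK cell markers Ncr1 and Klrb1c overlapped between the groups. The part of NK cell RNA in these rises was not tested. Klre1 measured 73.6, 67.5, 48.2 and 53.7 TPM in tumor, against 2.82, 2.15, 3.77 and 3.52 TPM in the day 12 lymph node, with a change of 3.92 ± 0.96, adjusted p = 0.0102. Klra3 rose by 4.45 ± 0.96 (adjusted p = 0.00361), with 11.7 to 62.9 TPM in tumor, against 0.11 to 0.82 TPM in the day 12 lymph node, and belongs to a family of near-identical genes whose reads may be shared. Klrc1, which encodes the inhibitory receptor NKG2A, measured 655, 583, 499 and 344 TPM in tumor, against 117, 115, 133 and 88.4 TPM in the day 12 lymph node. It was high in all tumor libraries, with a change of 2.16 ± 0.59, adjusted p = 0.0228. That call was lost without tumor replicate 2 or 3 or without day 12 replicate 1, 2 or 4 (adjusted p up to 0.07). Klrb1f was the member that fell (-3.16 ± 0.67, adjusted p = 0.00333). Of 10 costimulatory receptor genes 2 rose and 2 fell, with a median of 0.07 that turned to -0.04 without tumor replicate 1. Only 1 rose on leaving out any 1 library but tumor replicate 4. Tnfrsf9, the 4-1BB receptor induced by antigen, measured 463, 294, 335 and 223 TPM in tumor, against 24.4, 22.6, 25.9 and 17.3 TPM in the day 12 lymph node (3.77 ± 0.87, adjusted p = 0.00636). Its call was lost with a pseudocount of 0.1 TPM (adjusted p = 0.0577). Icos, which supports helper and effector responses, measured 54.3, 78.9, 69.9 and 24.8 TPM in tumor, against 283, 270.5, 312 and 237 TPM in the day 12 lymph node (-2.37 ± 0.53, adjusted p = 0.00506). Cd40lg, the ligand of CD40, fell by 2.88 ± 0.42 (adjusted p = 3.43e-05).

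The calls among genes induced by type I interferon were all rises in tumor. Of 27 such genes 13 rose and none fell, with a median log2 change of 1.84, and for 26 of them every tumor library was above every lymph node library, beside 20.1% of all genes. Without tumor replicate 2, 8 rose. With only the 2 groups all 27 were called higher, beside 19.9% of all genes. Many of these genes are switched on through the interferon-stimulated response element (ISRE), a promoter element bound by STAT and IRF proteins, and the upstream sequences of 3 members are shown because they hold matches to its core letters. The sequences are those of RefSeq for the GRCm38.p6 build, written 5′ to 3′ on the strand of the gene, with each match in capitals, a match being 2 copies of TTTC with any 2 bases between them, or 2 copies of GAAA so spaced, which is the same on the other strand. Ifit3 is shown at chr19:34583348-34583441 (plus strand), 181 to 88 bases before its start, Ifit1 at chr19:34640760-34640838 (plus strand) and Isg15 at chr4:156200850-156200921 (minus strand).
Ifit3: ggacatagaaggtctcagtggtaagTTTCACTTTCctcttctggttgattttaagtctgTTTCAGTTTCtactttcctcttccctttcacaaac
Ifit1: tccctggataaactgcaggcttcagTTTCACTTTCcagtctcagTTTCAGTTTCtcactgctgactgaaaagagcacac
Isg15: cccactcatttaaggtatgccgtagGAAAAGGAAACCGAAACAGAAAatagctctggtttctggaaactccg
The matches of Isg15 overlap each other. Of 19 interferon genes with a RefSeq window of 250 bases before to 50 bases after the start, 11 (57.9%) held such a match, against 3.44% of all 32851 windows. It was found in 6 of the 9 genes that rose and in 5 of the 10 that were not called.

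Usp18, the protease that takes the ubiquitin-like ISG15 off proteins, measured 81.6, 88.6, 77.9 and 42.5 TPM in tumor, against 6.93, 4.57, 5.64 and 4.65 TPM in the day 12 lymph node. The lowest tumor library was 6.13-fold the highest lymph node library, with a change of 3.48 ± 0.56, adjusted p = 0.000147. Ifit3, an antiviral gene, measured 69.9, 84.1, 124 and 35.4 TPM in tumor, against 10.2, 8.31, 6.42 and 8.74 TPM in the day 12 lymph node. Its change was 2.96 ± 0.50, adjusted p = 0.000266, although a close copy, Ifit3b, may share its reads. Isg15 measured 142, 162, 133 and 90.3 TPM in tumor, against 17.3, 14.2, 15.4 and 21.5 TPM in the day 12 lymph node, with a change of 2.86 ± 0.50, adjusted p = 0.000359. The 3 genes had no library of 1 group inside the range of the other. Rtp4 rose by 2.66 ± 0.82 (adjusted p = 0.0463), a call that was lost on leaving out any 1 library (adjusted p up to 0.108), with no filter (0.0882) and with a pseudocount of 0.1 TPM (0.177). Class I antigen processing genes, which interferons also induce, had 1 call among 16, the rise of H2-Q4 (1.49 ± 0.29, adjusted p = 0.00148), and a median of 0.18. H2-Q4 has close copies among the class I genes.

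Cell cycle genes had their calls all on the lower side in tumor, and each of the 40 listed genes was lower in each tumor library than in each lymph node library, beside 22.2% of all genes. Of the 40, 8 fell and none rose in the shared fit, with a median log2 change of -1.54, and all 40 were called lower with only the 2 groups, beside 21.5% of all genes. In the shared fit 3 fell without tumor replicate 4, 5 without day 12 replicate 4 or with a pseudocount of 0.1 TPM, and 4 when TPM were rescaled without predicted, mitochondrial and marker genes. Summed over the list, the level was 2365 to 3587 TPM in tumor and 7477 to 8566 TPM in the day 12 lymph node. Mki67, the proliferation marker Ki-67, measured 9.76, 8.46, 8.73 and 6.52 TPM in tumor, against 38.8, 33.7, 39.9 and 43.5 TPM in the day 12 lymph node. The 4 tumor libraries were close to one another, and the change was -2.10 ± 0.44, adjusted p = 0.00258. Tyms, the thymidylate synthase, measured 154, 91.5, 92.7 and 109 TPM in tumor, against 398, 352, 402 and 353 TPM in the day 12 lymph node (-1.77 ± 0.42, adjusted p = 0.00864). Cenpe, a kinetochore motor, fell by 1.94 ± 0.47 (adjusted p = 0.0096), a call that was lost with a pseudocount of 0.1 TPM (0.097) and when TPM were rescaled without predicted, mitochondrial and marker genes (0.051). Of 57 replication-dependent histone genes tested 5 fell and 2 rose, with a median of -0.11 that turned to 0.19 under that rescaling, and these genes are close copies of one another. Only 3 fell on leaving out any 1 library but tumor replicate 1, and 1 rose on leaving out any 1 library but tumor replicate 1 or day 12 replicate 2. Their summed level was 1993 to 3629 TPM in tumor and 8154 to 11222 TPM in the day 12 lymph node. Among 14 cell cycle inhibitor and quiescence genes 1 rose and 2 fell, one of the 2 being Klf2. Cdkn1a, which encodes the cyclin-dependent kinase inhibitor p21, measured 83.7, 55.3, 56.2 and 63.2 TPM in tumor, against 15.4, 12.1, 17.2 and 13.9 TPM in the day 12 lymph node. It was the member that rose, by 2.06 ± 0.46 (adjusted p = 0.00467). Tsc22d3, a glucocorticoid-induced gene, was lower (-1.79 ± 0.44, adjusted p = 0.0115), a call that was lost without tumor replicate 4 (adjusted p = 0.064).

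The calls among glycolysis and hypoxia genes were all rises in tumor, and those among nuclear genes of the respiratory chain were all decreases. Of 24 glycolysis and hypoxia genes 4 rose and none fell, with a median log2 change of 0.77. With only the 2 groups 14 were called higher, beside 19.9% of all genes. With quantile normalization, or rescaled without predicted, mitochondrial and marker genes, 7 rose. Bnip3, a hypoxia-induced receptor for the removal of mitochondria, measured 104, 94.7, 72.01 and 70.1 TPM in tumor, against 5.21, 5.23, 4.79 and 4.07 TPM in the day 12 lymph node. It was low in all lymph node libraries, and the change was 3.87 ± 0.41, adjusted p = 1.6e-07. Hilpda, a hypoxia-induced lipid droplet protein, measured 73.3, 44.2, 42.2 and 40.9 TPM in tumor, against 9.93, 9.49, 9.75 and 8.99 TPM in the day 12 lymph node (2.24 ± 0.50, adjusted p = 0.0047). Tpi1, an enzyme of glycolysis, measured 757, 576, 567 and 515 TPM in tumor, against 271, 272, 273 and 239 TPM in the day 12 lymph node (1.18 ± 0.29, adjusted p = 0.0105). Aldoa, another enzyme of glycolysis, rose by 1.19 ± 0.32 (adjusted p = 0.0213), a call that was lost without tumor replicate 1 or 2 or day 12 replicate 1, 2 or 4 (adjusted p up to 0.0606). Of 24 nuclear respiratory chain genes 3 fell and none rose (0 higher and 14 lower with only the 2 groups), with a median of -0.55. The median shrank to -0.24 with quantile normalization and to -0.19 when TPM were rescaled without predicted, mitochondrial and marker genes. The decreases numbered 0 without tumor replicate 4 or day 12 replicate 3, and 1 without tumor replicate 2 or 3 or day 12 replicate 4 or under that rescaling. Atp5a1, a subunit of ATP synthase, measured 349.7, 274, 275 and 230.1 TPM in tumor, against 655, 679, 707 and 660.3 TPM in the day 12 lymph node (-1.27 ± 0.34, adjusted p = 0.0176). Its call was lost without tumor replicate 4 or day 12 replicate 3 (adjusted p up to 0.0701).

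Of 13 transcripts of the mitochondrial genome 4 rose and none fell, with a median of 1.83. The rises numbered 0 without tumor replicate 2 or 3 or day 12 replicate 1, 1 without day 12 replicate 2, 3 or 4 or with quantile normalization, and 2 with no filter. mt-Co1, a subunit of cytochrome oxidase, measured 3529, 7727, 4812 and 2687 TPM in tumor, against 761, 890.5, 1054 and 946 TPM in the day 12 lymph node (2.26 ± 0.60, adjusted p = 0.0179). It was highest in tumor replicate 2, the library with the most mitochondrial RNA, and its call was lost without tumor replicate 2 or 3 or day 12 replicate 1 (adjusted p up to 0.0769). Of 74 cytoplasmic ribosomal protein genes tested 8 fell and none rose (0 higher and 40 lower with only the 2 groups), with a median of -0.61 that shrank to -0.25 when TPM were rescaled without predicted, mitochondrial and marker genes. The decreases numbered 19 without tumor replicate 1 and 2 without tumor replicate 4, between 3 and 5 without any 1 of the other libraries, and 3 under that rescaling. Rps4x measured 435, 302, 306 and 239.5 TPM in tumor, against 595, 669, 755 and 738 TPM in the day 12 lymph node (-1.13 ± 0.25, adjusted p = 0.00424), and its adjusted p was 0.0556 under that rescaling. Lipid uptake and fatty acid oxidation genes had 1 of 20 higher, Plin2 of the lipid droplet coat (2.11 ± 0.62, adjusted p = 0.0342), whose call was lost on leaving out any 1 library (adjusted p up to 0.0855) and with no filter (0.0629).

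Stress genes had few calls, apart from the inducible HSP70 genes. Of 30 immediate early genes, which cell handling can induce, 2 rose and none fell, beside 4.55% and 2.42% of all genes. The median log2 change was 0.09 and turned to -0.03 without tumor replicate 1. With only the 2 groups 9 of the 30 were higher and 6 lower, beside 19.9% and 21.5% of all genes. When TPM were rescaled without predicted, mitochondrial and marker genes 5 rose. The 2 were Nr4a2 and Fosl2 (1.48 ± 0.41, adjusted p = 0.0239), and the call of Fosl2 was lost without tumor replicate 3 or 4 or any 1 of the day 12 libraries (adjusted p up to 0.0707). Of 15 heat shock genes 3 rose and 1 fell, with a median of -0.10 that turned to 0.10 with quantile normalization and to 0.04 without tumor replicate 4. The decrease was no longer called on leaving out any 1 library but tumor replicate 1, with no filter or under the other scalings. Hspa1a, an inducible HSP70 gene, measured 106, 36.2, 77.3 and 99.4 TPM in tumor, against 0.14, 0.42, 0.14 and 0.15 TPM in the day 12 lymph node. It was near 0 in all lymph node libraries and lowest in tumor replicate 2 among the tumor libraries, with a change of 5.95 ± 1.11, adjusted p = 0.000811. Its near-identical copy Hspa1b changed by 5.88 ± 1.13, adjusted p = 0.0011, and the reads of the pair may be split between them. Hspb1, a small heat shock protein that epithelial cells also make, rose by 4.27 ± 0.78 (adjusted p = 0.000608), with 10.01 to 33.7 TPM in tumor, against 0 to 0.24 TPM in the day 12 lymph node. The letters GAA, TTC and GAA with 2 bases between neighbours, a form of the element bound by heat shock factor, were searched on both strands and found in none of the 3 genes that rose, in 3 of 8 not called and in 0.603% of all windows. Of 16 unfolded protein response genes none was called in the shared fit, with a median of -0.59. That median shrank to -0.24 with quantile normalization and to -0.23 when TPM were rescaled without predicted, mitochondrial and marker genes. At an unadjusted p under 0.05, 0 were higher and 4 lower, and 3 were higher and 8 lower with only the 2 groups.

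Further lists showed few calls. None of 18 cholesterol synthesis genes was called (1 higher and 4 lower with only the 2 groups), none of 10 amino acid transporter genes (1 higher and 2 lower) and none of 8 Gimap GTPase genes (2 higher and 0 lower). At an unadjusted p under 0.05, 0 cholesterol synthesis genes, 1 amino acid transporter gene and 1 Gimap gene differed, both of these higher in tumor. Of 14 Bcl2 family genes 1 rose, the survival gene Bcl2, with 15.8 to 29.3 TPM in tumor, against 2.61 to 3.81 TPM in the day 12 lymph node. Its change was 2.34 ± 0.61, adjusted p = 0.0156, and the call was lost without day 12 replicate 3 (adjusted p = 0.0522) and with a pseudocount of 0.1 TPM (0.0859). Of 15 S100, annexin and galectin genes 1 fell, that of the intermediate filament vimentin, Vim, which was listed with them (-2.17 ± 0.41, adjusted p = 0.000959), with 269 to 387 TPM in tumor, against 1479.7 to 1562 TPM in the day 12 lymph node.

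The largest rises were ranked by size among called genes with a mean log2(TPM + 1) of at least 3 and no overlap, leaving out predicted, receptor segment, immunoglobulin, mitochondrial and marker genes. Among the genes left out, the hemoglobin genes Hba-a2 (10.86 ± 1.86, adjusted p = 0.000309), Hbb-bs (10.61 ± 1.72, adjusted p = 0.000147) and Hba-a1 (9.32 ± 1.67, adjusted p = 0.00052) rose by more than any gene ranked. Krtdap, a gene of keratinocyte differentiation, measured 575, 1626, 919 and 218 TPM in tumor, against 0, 0, 0 and 0.16 TPM in the day 12 lymph node (9.31 ± 1.24, adjusted p = 8.07e-06). Sprr2a2, of the cornified envelope, measured 159, 631, 276 and 80.1 TPM in tumor, against 0.34, 0.66, 0.05 and 0.07 TPM in the day 12 lymph node (7.44 ± 1.05, adjusted p = 1.88e-05). Dmkn, which encodes dermokine, measured 114, 299, 153 and 35.4 TPM in tumor, against 0.1, 0, 0.07 and 0.05 TPM in the day 12 lymph node (6.81 ± 0.86, adjusted p = 3.06e-06). All 3 were highest in tumor replicate 2 and lowest in tumor replicate 4, the order of the keratinocyte marker sum, which was 102, 306, 194 and 47 TPM in tumor replicates 1 to 4. Of the 10 genes with the largest rises 8 had that highest and that lowest library: Ly6g6c (6.21), BC100530 (6.14), the epidermal protease gene Klk7 (5.93), Sbsn of differentiating keratinocytes (5.69) and Ccl3 are the others. The part of keratinocyte RNA in these rises was not tested. The remaining 2 were Hspa1a and Hspa1b, which were lowest in tumor replicate 2.

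The 10 largest decreases by the same rule included T cell genes described above. Besides Itgae, Ccr10, Tcf7, Gzma, Klf2 and S1pr1 they held Wnt10a, which encodes a secreted Wnt ligand and measured 1.11, 1.96, 0.92 and 0.45 TPM in tumor, against 75.98, 75.1, 85.9 and 75.1 TPM in the day 12 lymph node. That change was -5.27 ± 0.38, adjusted p = 6.28e-11, with all tumor libraries under 2 TPM. Trat1, an adaptor that associates with the T cell receptor, measured 8.38, 8.77, 15.97 and 3.87 TPM in tumor, against 266, 259.8, 261 and 217 TPM in the day 12 lymph node (-4.75 ± 0.53, adjusted p = 3.8e-07). AL589651.4, with 25.4 to 109.7 TPM in tumor, against 1148 to 2286 TPM in the day 12 lymph node, changed by -4.72 ± 0.91, adjusted p = 0.00116. H3f3c, listed at 0 in 3 tumor libraries and at 3.01 TPM in tumor replicate 4, against 18 to 125 TPM in the day 12 lymph node, has close copies among the histone H3 genes and its level is uncertain.

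Against the rest of the series, the tumor group stood at an end of the order for many of 19 core genes, given here as levels without a test. Its mean was the highest of the 8 groups for 8 of them, Gzmb, Prf1, Pdcd1, Havcr2, Lag3, Tigit, Tox and Entpd1, and the lowest for 6, Itgae, Cd69, S1pr1, Klf2, Ccr7 and Tcf7. Pdcd1 averaged 472 TPM in tumor and 50.5 in the day 12 lymph node, with 441 in skin, whose range of 42.7 to 668 TPM overlapped that of tumor, 161 in liver (range 23.9 to 517, overlapping it too) and 1.17 in naive cells (range 1.08 to 1.27). Entpd1 averaged 63.6 TPM in tumor, 3.26 in the day 12 lymph node and 46.8 in liver, where its range of 20.6 to 98.1 TPM overlapped that of tumor. Itgae averaged 0.81 TPM in tumor and 71.5 in the day 12 lymph node, beside 381 in skin (range 107 to 575) and 325 in lymph node memory cells (range 176 to 478). Slamf6 was low in tumor, with a mean of 15.9 TPM, against 321 TPM in the day 12 lymph node, and only skin was lower, at 2.81 TPM (range 1.48 to 4.83). The interferon gene Usp18 followed another order, since the day 12 lymph node, at 5.45 TPM, had the lowest mean of the 8 groups, while tumor, at 72.6 TPM, was close to naive cells, at 84.8 TPM (range 77.02 to 93.3). Ccl3 averaged 1511 TPM in tumor, 26.5 in the day 12 lymph node and 318 in liver (range 118 to 436), the next highest group.

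**Figure D5:**
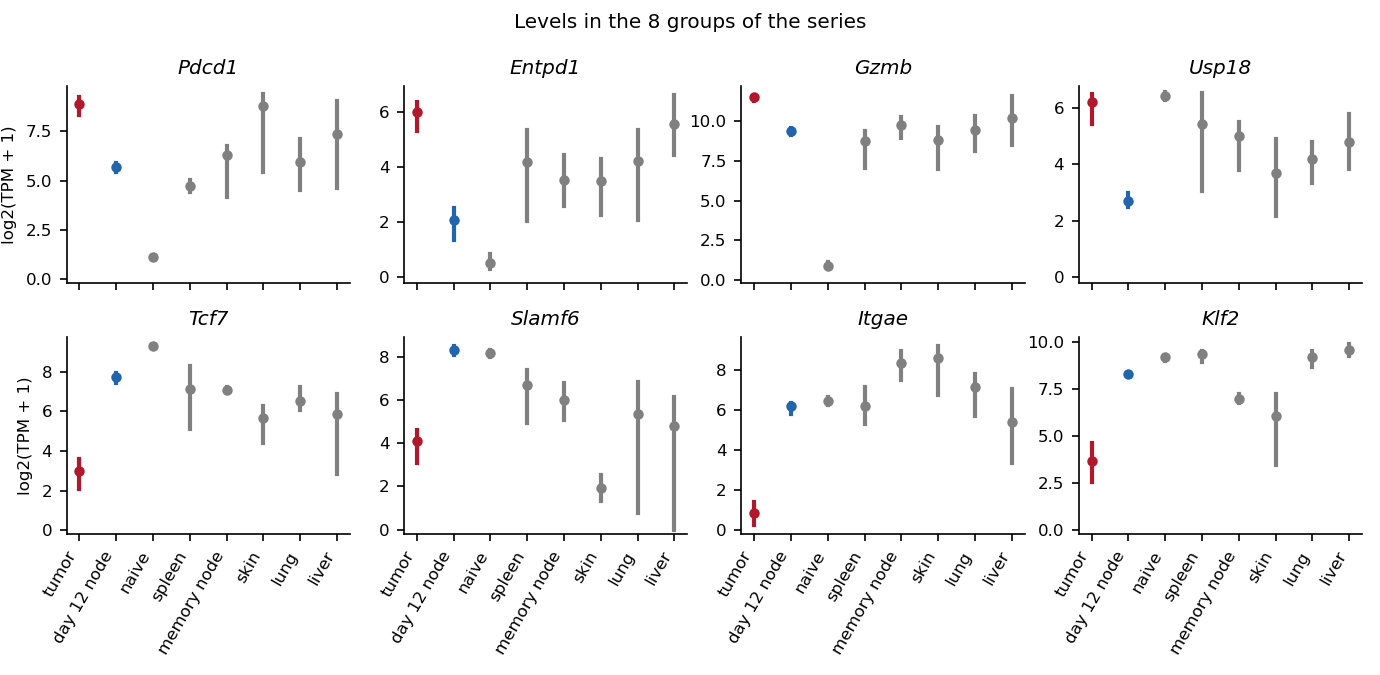
The level of 8 genes as log2(TPM + 1) in each of the 8 groups, with tumor in red, the day 12 lymph node in blue and the other groups in grey; the dot is the log2 of the mean TPM plus 1 and the bar runs from the lowest to the highest of 4 libraries. Tcf7, Itgae and Klf2 have their lowest mean in tumor and Pdcd1, Entpd1 and Gzmb their highest, while the day 12 lymph node has the lowest mean of Usp18.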

How the data were processed

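Bulk RNA sequencing libraries from Pmel T cells were used, 4 per group in 8 groups. The submitters' processing notes name Bowtie and the mm10 build; the sources used here give no version, annotation or counting step. The authors deposited the natural log (ln) of TPM + 1 per gene, as the values show: converted back, they are multiples of 0.01 TPM and sum to the same total in each library. Read counts were not used and depth is unknown. Of 46517 gene names, 42052 (90.4%) matched a symbol of the reference annotation.

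Values were turned into log2(TPM + 1). The 19738 genes with at least 1 TPM in 4 or more of the 32 libraries were fitted with limma 3.58.1 in R 4.3.3, all 8 groups in 1 linear model with a variance trend and 24 residual degrees of freedom. P-values of tumor minus day 12 lymph node had Benjamini-Hochberg adjustment, and the threshold of a call was 0.05. The fit was tested on simulated data. Lists are described by counts of calls and medians, without a set test, and marker genes by summed TPM per library. The members and lists were chosen with earlier results of these data known. Genes are named by a rule: 20 core genes (1 is not reported here), the 10 largest called changes in each direction without overlap and with a mean log2 of at least 3 (leaving out predicted, receptor segment, mitochondrial and marker genes), and up to 4 called members of each list, of which a part is printed. Eomes, Tox2, Il21, the hemoglobin genes and the single marker genes were named after their values were seen. Alternatives were another filter or pseudocount, only the 2 groups, weights per group or library, a replicate block, other scalings, T cell identity as a covariate, and leaving out libraries. Rescaling without predicted genes, which also left out Tmf1 and Rorb, was added after the data were seen. Promoter windows come from RefSeq. Python 3.11.15 with pandas 2.3.3 and Matplotlib 3.10.9 served for motifs and figures.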

Additional observations from a re-analysis of the deposited data

Results flagged for a closer look

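Within groups of 4 libraries, 14 of 198 sets of values, each of a named gene or a library measure, had a library that stood apart from its group by Dixon's criterion for 4 values (the gap to the nearest library as a share of the range, on the log2 scale), where chance gives about 1 group in 20. In tumor, H3f3c was at 3.01 TPM in replicate 4 and listed at 0 in the others. Ccl9 was lowest in replicate 4, at 8.53 TPM, with 21 TPM next. In tumor replicate 1, Hilpda was highest at 73.3 TPM (44.2 TPM next) and Hist1h2ab at 9.98 TPM (5.47 TPM next).

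In the day 12 lymph node, replicate 4 was the library apart for Krtdap (0.16 TPM, others at 0), BC100530 (0.05 TPM, others at 0), H3f3c (17.98 TPM, with 95.9 TPM next above), Trat1 (217 TPM, with 259.83 TPM next above), Rasgrp2 (356 TPM, with 333 TPM next below), Tpi1 (239 TPM, with 271 TPM next above) and Plin2 (6.32 TPM, with 6.93 TPM next above). Replicate 3 stood apart for Wnt10a (85.9 TPM, with 76 TPM next below) and Bcl2 (2.61 TPM, with 3.66 TPM next above), and replicate 2 for Hspa1a (0.42 TPM, with 0.15 TPM next below). The tumor and day 12 libraries did not overlap for these genes, as for 93 of the 95 named genes. That is no check on the libraries that stood apart, since named genes were mostly picked by large called changes or by a lack of overlap.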

How the results depend on the processing

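The number of called genes depended on how the spread was estimated. It was 1376 (899 higher and 477 lower in tumor) in the fit of all groups, 8169 (3924 and 4245) with only the 2 groups, 8937 (4685 and 4252) with weights per group, 10735 (5553 and 5182) with weights per library and 2331 (1129 and 1202) without the 6 libraries poorest in T cell identity RNA, 1 of them tumor replicate 4. Leaving out each library in turn gave 774 to 1623 genes, 521 to 1134 higher and 248 to 489 lower. With a filter of 5 TPM 570 genes were higher, and quantile normalization gave 714 higher and 766 lower, so the higher share went to 48.2%, against 65.3%. Rescaling without mitochondrial and marker genes gave 72.8% higher, and rescaling also without predicted genes 77.8% (962 higher and 275 lower), with the median of all genes at 0.21. Adding the replicate number as a block gave 1450 genes with all groups and 7141 (3245 and 3896) with only the 2 groups. Same-numbered deviations from the group means correlated at -0.11, -0.13, -0.07 and 0.12, and no tumor library correlated best with its own number. The labels do not state whether same-numbered libraries came from the same animal. Deviations from means of 4 libraries, which also differ in quality, cannot settle it. With the block and all groups 15 cell cycle genes fell, against 8. Without the 6 libraries poorest in T cell identity RNA, 22 cell cycle and 26 ribosomal protein genes fell, and 20 interferon, 11 residency, 11 mitochondrial, 10 glycolysis and 10 cytokine genes rose. Of 90 called named genes, 60 were called whichever library was left out. No named gene changed direction in any alternative run. A list median was taken as moved when it shifted by at least the SD of the list mean between libraries of a group. By that measure, 25 list medians moved and 3 did not when TPM were rescaled without predicted, mitochondrial and marker genes. With quantile normalization 9 moved and 20 did not. List medians near 0 changed sign under some scalings or on leaving out a library: those of the TGF-beta, Bcl2, heat shock, T cell identity, cholesterol, lipid, amino acid transporter and histone lists, and without tumor replicate 1 those of the costimulatory and immediate early lists. Causes were not tested. TPM give no depth, so counting error of low genes is unknown.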
